A study of Mus musculus with 8 samples.

Results

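Immediate early response genes are a set of genes that cells switch on within minutes of a stimulus, without first making new protein. In skeletal muscle they are known to respond to contraction, stretch, injury and handling of the tissue, and their transcripts are short-lived. Most of their products are transcription factors. FOS and JUN family proteins pair through leucine zippers to form the AP-1 factor, EGR1 and MYC act on other DNA sites, and a few members code for small regulators of growth and survival. The 10 genes described here are *Fos*, *Fosb*, *Jun*, *Junb*, *Egr1*, *Atf3*, *Myc*, *Ier2*, *Ier3* and *Btg2*. They were chosen by their gene symbols, and each was found in 1 of the 22206 probe sets of the table, in a row that names no other gene.

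RNA came from the gastrocnemius, or GAS, a calf muscle, of male mice of the C57/Bl6j strain labelled as 14 weeks old. Adeno-associated virus (AAV) had been injected into the muscle 3 weeks earlier. Both groups carried a virus with a short hairpin RNA under a U6 promoter, which is active in every cell type the virus reaches. The AAV sh-RNA MYTHO virus targets the transcript of *Mytho*, an autophagy regulator listed as D230025D16Rik, and the AAV sh-RNA scrmb virus, with a scrambled hairpin, went into the opposite leg of the same mice. By the methods of the study the MYTHO virus went into the right leg, so virus and body side cannot be told apart. Each group held 4 arrays, and each column name carries 1 of 4 numbers that occurs once in each group. That number was taken as the animal, called A to D here, with 1 leg of each kind. The values are log2 signals, on which a difference of 1 is a doubling, and with 4 arrays a group the intervals below are wide.

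Array medians lay between 6.39 and 6.47. The D230025D16Rik signal ran from 10.78 to 11.35 in scrmb and from 8.08 to 8.80 in MYTHO, a log2 fold change of -2.81 with a standard error of 0.21 (limma adjusted p = 0.00044), so the groups did not overlap in the targeted gene. Of the 8 muscle fibre markers, 3 were saturated on all arrays, among them *Acta1* and *Myh4*, the main actin and a fast myosin of the labelled tissue. In pieces of whole muscle, more cells that express a gene and more RNA per cell cannot be told apart.

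For none of the 10 genes was the difference between MYTHO and scrmb muscle larger than the spread between arrays by limma. The limma adjusted p over all probe sets ran from 0.551 for *Fos* to 0.996 for *Jun*, where 0.027% of all probe sets had an adjusted p under 0.05. At an unadjusted p under 0.05, limma called 0 of the 10 higher and 0 lower, against 4.81% of all probe sets higher and 7.58% lower. With at least a 2-fold change as well, the threshold of the study, 0 of the 10 passed, against 0.261% of all probe sets higher and 1.25% lower. The groups overlapped for every member, while 2.59% of all probe sets had all MYTHO arrays above all scrmb arrays and 3.87% had them all below. The exact two-sided permutation test over 70 relabellings of the arrays gave p from 0.314 to 1.0 for the 10 genes, and the smallest p it allows is 0.0286. These relabellings shuffle all arrays freely and do not keep the legs of an animal paired. Only *Fos* among the 10 had a mean at least 1 higher in MYTHO on the log2 scale, found in 0.275% of all probe sets, and none of the 10 had one at least 1 lower. In 9 of the 10 genes the mean was higher in MYTHO muscle, and the median log2 fold change of the 10 was 0.30, beside -0.005 over all probe sets, of which 49.3% lay above 0. These 9 signs are not independent, since 1 scrmb array held the lowest value of most of the genes.

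Promoter windows of the members were read for short motifs known from early response genes. RefSeq windows on GRCm38.p6, from 250 bases before to 50 bases after the start, were used for 6 members whose window starts at the annotated gene start (*Fos*, *Jun*, *Junb*, *Atf3*, *Ier3* and *Btg2*). The core TGACG of the cyclic AMP response element, on either strand, occurred in 4 of the 6 and in 20.8% of all 32851 windows. TATAAA occurred in 2 of the 6 and in 13.6% of all windows. The AP-1 site TGANTCA and the CArG box, the site of SRF, occurred in 0 of the 6 and in 7.81% and 1.63% of all windows. All motifs were sought on both strands, and TATAAA can lie within a CArG box. The core TGACG was chosen after the sequences were seen, so its count of 4 was fixed by that choice and is not a result. A match is a description and not a site of binding, and sites further upstream lie outside these windows. The TGACG sites nearest the start are shown with the core in capitals, as 30 bases in the direction of the gene, to show the sequence around these cores.

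*Fos*, chr12:85473801-85473830, plus strand: cccccccttccagttccgcccagTGACGta
*Junb*, chr8:84978848-84978877, minus strand: caaggacacgcgcttcctgacagTGACGcg
*Atf3*, chr1:191183334-191183363, minus strand: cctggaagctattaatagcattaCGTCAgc
*Btg2*, chr1:134079315-134079344, minus strand: agtccggtgcttgttcccaataaTGACGtc

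The core began 66, 106, 7 and 166 bases before the start in *Fos*, *Junb*, *Atf3* and *Btg2*, and in *Atf3* it lies on the opposite strand and so reads CGTCA.

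**Figure D1:**
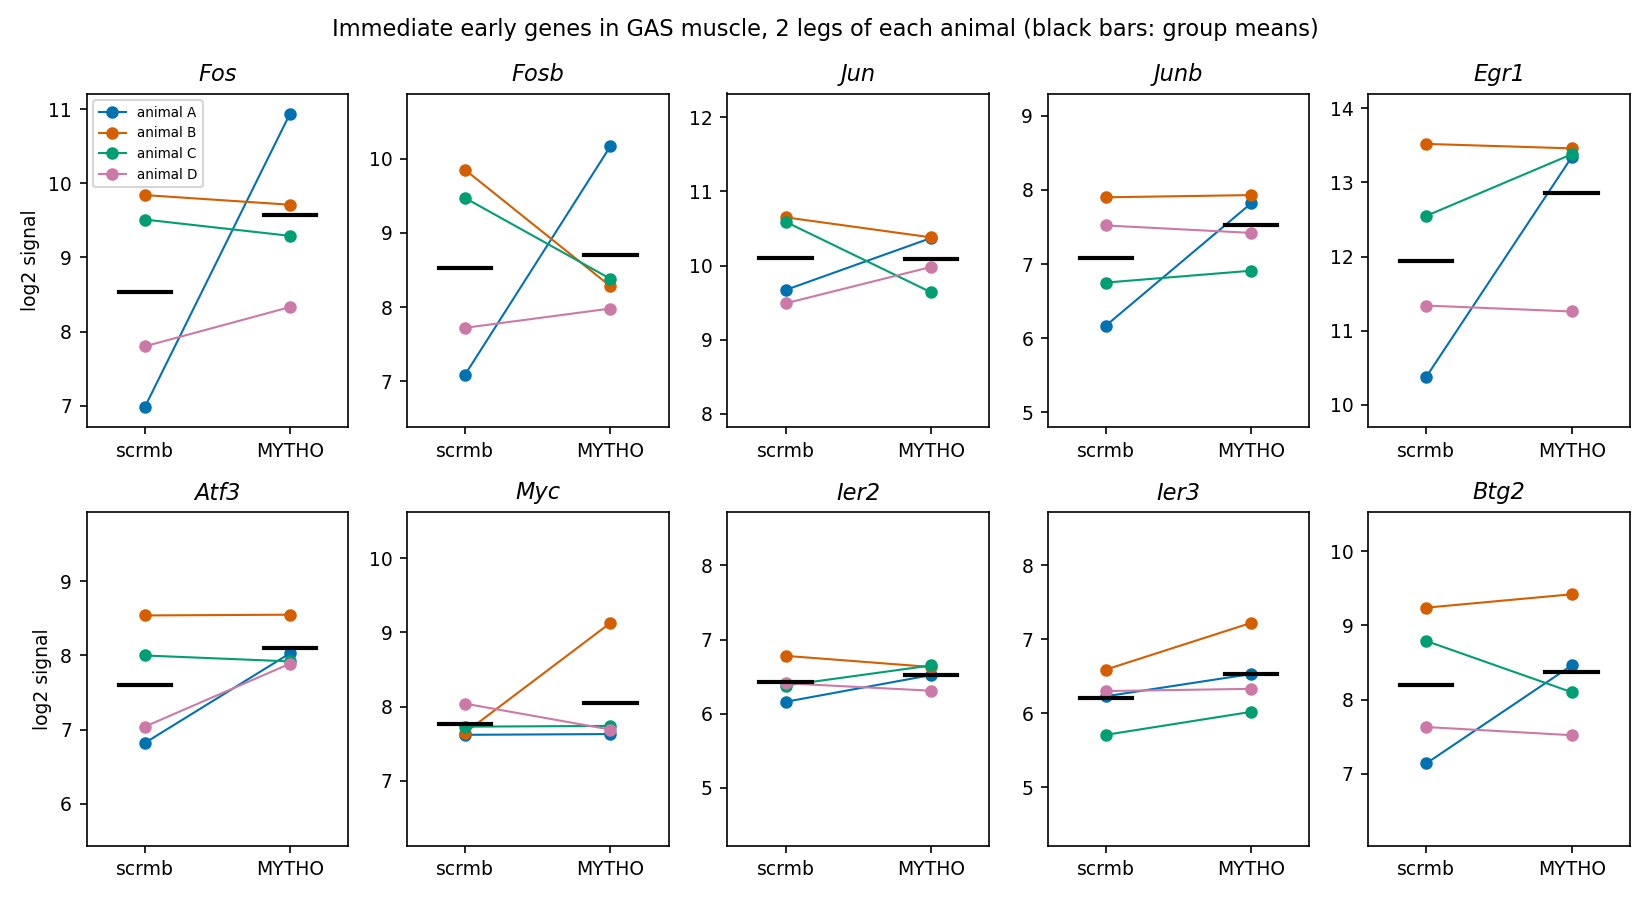
Log2 signal of each of the 10 genes in scrmb and MYTHO muscle, with a point per array, lines that join both legs of an animal and black bars for group means. The steepest lines, on panels of equal height in log2 units, belong to animal A, where *Fos* was 6.98 in the scrmb leg and 10.94 in the MYTHO leg.

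*Fos* codes for the FOS subunit of AP-1 and is the gene most often used to mark recent stimulation of a cell. It lies on chromosome 12 from 85473890 to 85477274 in GRCm38.p6, the same assembly as mm10. From animal A to animal D, the scrmb legs read 6.98, 9.84, 9.51 and 7.80 on the log2 scale and the MYTHO legs 10.94, 9.71, 9.29 and 8.33. The scrmb legs of A and D were low and the MYTHO leg of A was the highest of all, and the MYTHO leg of D lay between the low scrmb legs and the rest. The scrmb legs averaged 8.53 ± 1.37 (SD, n = 4), and the MYTHO legs averaged 9.57 ± 1.08 (SD, n = 4). This difference of 1.03 on the log2 scale (SE 0.64) had a 95% confidence interval from -0.36 to 2.43, so both a 5.38-fold higher level and a level at 0.781 of scrmb lie within the interval. Animal A alone differed by 3.96 between its legs, while the differences in animals B, C and D were -0.13, -0.22 and 0.53. Of the 22206 probe sets, 0 differed by more than *Fos* between the legs of animal A.

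*Fosb*, a FOS family subunit whose products accumulate with repeated stimulation, lies on chromosome 7 from 19302696 to 19310118. It read 7.09, 9.85, 9.47 and 7.72 in scrmb legs A to D and 10.17, 8.28, 8.38 and 7.98 in MYTHO legs A to D. Legs of animal A were again at both ends of the scale, and in animals B and C the scrmb leg was the higher one. The differences between legs were 3.08 in A, -1.57 in B, -1.09 in C and 0.26 in D. The mean log2 fold change of *Fosb* was 0.17 with a confidence interval from -1.16 to 1.50 (limma adjusted p = 0.943). Leaving out both arrays of animal A turned it to -0.80 (limma adjusted p = 0.575).

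*Egr1*, a zinc finger factor induced by growth factors and by mechanical load, lies on chromosome 18 from 34861207 to 34864956. Signals of 10.38, 13.52, 12.55 and 11.34 were read in scrmb legs A to D and of 13.34, 13.46, 13.38 and 11.26 in MYTHO legs. In MYTHO muscle, 3 legs lay between 13.34 and 13.46 and the leg of animal D far below them. In scrmb muscle the values were spread over 3.14 on the log2 scale, so the MYTHO leg of D fell inside the scrmb range. The scrmb mean was 11.95 ± 1.37 (SD, n = 4), and that of MYTHO 12.86 ± 1.07 (SD, n = 4). *Egr1* thus had a log2 fold change of 0.91 with a confidence interval from -0.48 to 2.30 (limma adjusted p = 0.609).

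The JUN family subunits had within-group SDs of 0.50 (*Jun*) and 0.64 (*Junb*), and the difference between these SDs was not tested. *Jun*, the main partner of FOS, lies on chromosome 4 from 95049036 to 95052222 and ranged from 9.49 to 10.65 in scrmb and from 9.64 to 10.38 in MYTHO. Its log2 fold change of -0.01 had a confidence interval from -0.65 to 0.63. *Junb*, which often opposes JUN in growth control, lies on chromosome 8 from 84976909 to 84978748. The array values of *Junb* were 6.17, 7.90, 6.75 and 7.52 in scrmb and 7.82, 7.93, 6.91 and 7.42 in MYTHO, so the scrmb leg of animal A was apart at the low end and the other legs overlapped. The log2 fold change of *Junb* was 0.43 with a confidence interval from -0.34 to 1.21 (limma adjusted p = 0.674).

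*Atf3*, a stress-induced factor of the ATF/CREB family that also pairs with JUN proteins, lies on chromosome 1 from 191170296 to 191183333. It ranged from 6.82 in animal A to 8.54 in animal B in scrmb, and read 8.03, 8.55, 7.92 and 7.89 in MYTHO. The MYTHO legs spanned 0.66 and the scrmb legs 1.72, with the scrmb legs of A and D below all MYTHO legs and those of B and C among them. The log2 fold change of *Atf3* was 0.50 with a confidence interval from -0.25 to 1.25 (limma adjusted p = 0.605).

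*Myc*, a regulator of growth and ribosome production, lies on chromosome 15 from 61985341 to 61990361. *Myc* read 7.62, 7.65, 7.73 and 8.04 in scrmb and 7.63, 9.13, 7.74 and 7.69 in MYTHO. A single array, the MYTHO leg of animal B, stood apart, and the other 7 arrays lay between 7.62 and 8.04. The log2 fold change of *Myc* was 0.29 (limma adjusted p = 0.760), and without that array it was -0.07.

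The last 3 genes lie outside the AP-1, EGR and MYC families. *Btg2*, an antiproliferative gene that p53 also induces, lies on chromosome 1 from 134074865 to 134079155. Its values were 7.14, 9.24, 8.79 and 7.63 in scrmb and 8.46, 9.42, 8.10 and 7.52 in MYTHO, with low values in both legs of animal D and the scrmb leg of A and high ones in both legs of B. The log2 fold change of *Btg2* was 0.17 with a confidence interval from -0.86 to 1.21. *Ier3*, linked to cell survival, lies on chromosome 17 from 35821713 to 35822911 and ranged from 5.71 to 6.59 in scrmb and from 6.02 to 7.22 in MYTHO. The share of all probe sets with the same direction in 4 of 4 animals was not counted, here or below. *Ier3* was the only member higher in the MYTHO leg of 4 of 4 animals, by 0.30, 0.63, 0.31 and 0.03. Its log2 fold change was 0.32 with a confidence interval from -0.27 to 0.91 (limma adjusted p = 0.690), and its adjusted p with animal as a block was 0.517. Without the MYTHO array of B the log2 fold change of *Ier3* was 0.086, and without the scrmb array of C it was 0.15. *Ier2*, a small nuclear protein gene on chromosome 8 from 84661331 to 84662852, ranged only from 6.16 to 6.78 over all 8 arrays. The log2 fold change of *Ier2* was 0.10 with a confidence interval from -0.31 to 0.50. With single arrays left out it lay between 0.0042 (without scrmb A) and 0.21 (without scrmb B).

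**Figure D2:**
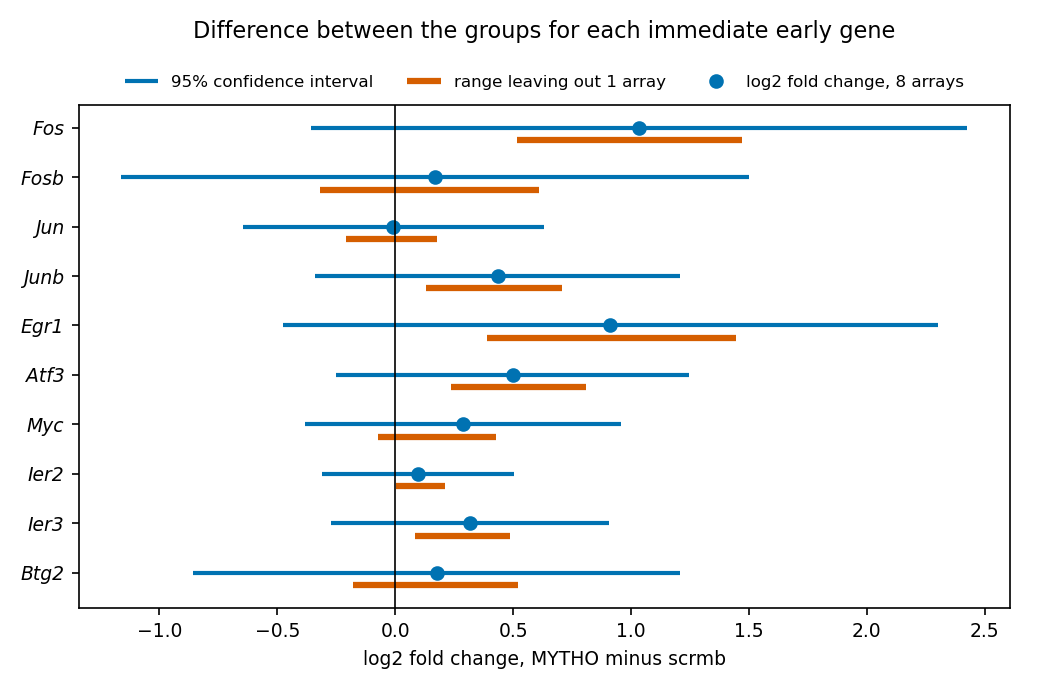
Log2 fold change, MYTHO minus scrmb, of each gene (points) with its 95% confidence interval (blue lines) and the range of values obtained by leaving out each array in turn (orange bars). All 10 intervals include 0, from -0.36 to 2.43 for *Fos* and from -0.31 to 0.50 for *Ier2*.

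Most of the 10 genes varied widely within groups. The within-group SD was 1.23 for *Fos*, 1.23 for *Egr1*, 1.18 for *Fosb* and 0.89 for *Btg2*, each larger than in over 99% of probe sets. The median within-group SD was 0.63 over the 10 genes and 0.32 over all probe sets. The SD of *Junb*, *Atf3* and *Myc* exceeded that of 97.3%, 96.5% and 91.6% of probe sets, and that of *Jun* and *Ier3* 88.6% and 81.5%. *Ier2* was the exception, with an SD of 0.21 that exceeded only 17.3%. These shares are descriptions and were not matched on signal.

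The spread followed arrays. The scrmb leg of animal A held the lowest of the 8 values in 8 of the 10 genes, though by only 0.01 for *Myc*, and *Jun* and *Ier3* were lowest in the scrmb legs of D and C. At the other end, the MYTHO leg of B was highest in 5 genes, the scrmb leg of B in 3 and the MYTHO leg of A in 2. The mean log2 signal of the 10 genes was 7.43, 9.06, 8.55 and 7.93 in scrmb legs A to D and 8.98, 9.07, 8.40 and 8.07 in MYTHO legs A to D. Animal B was thus high and animal D low in both legs, animal C was intermediate, and animal A differed between its legs by 1.56 on average.

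**Figure D3:**
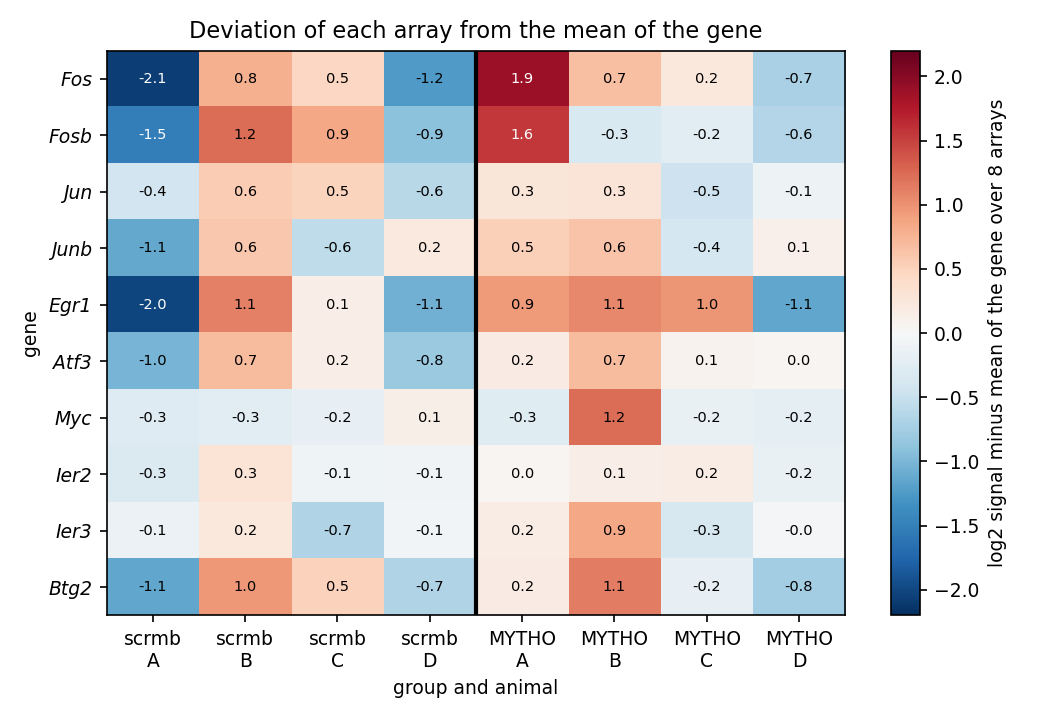
Log2 signal of each gene on each array minus the mean of that gene over the 8 arrays, with scrmb arrays left and MYTHO arrays right of the black line. The scrmb array of animal A is the lowest in 8 of the 10 genes and the MYTHO array of animal B the highest in 5.

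Within animals, all 10 genes were higher in the MYTHO leg of A, where 48.3% of all probe sets were higher in that leg. In animals B, C and D, 5 of the 10 were higher in the MYTHO leg, against 50.5%, 47.0% and 48.3% of all probe sets. The median difference of the 10 genes was 1.26 in A and -0.03, -0.04 and -0.03 in B, C and D, beside medians of -0.01, 0.01, -0.03 and -0.01 over all probe sets. With both arrays of animal A left out, a choice made after the values were seen, the log2 fold change was 0.06 for *Fos*, 0.23 for *Egr1*, 0.26 for *Atf3* and 0.03 for *Junb*, while *Myc* was at 0.38 and *Ier3* at 0.32. Without the scrmb array of A alone, *Fos*, *Egr1*, *Atf3* and *Junb* were at 0.52, 0.39, 0.24 and 0.13.

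Sensitivity to single arrays also ran the other way. Without the scrmb array of B, limma gave an unadjusted p under 0.05 for 3 genes, *Fos* (1.47), *Egr1* (1.44) and *Atf3* (0.81), where the values in parentheses are log2 fold changes, beside 3.73% of all probe sets. *Fos* and *Egr1* were then also at least 2-fold higher, beside 0.266%. Without the MYTHO array of D, it did so for *Fos* at 1.45 and *Egr1* at 1.45, beside 4.91% of all probe sets, both at least 2-fold higher, beside 0.468%. The scrmb array of B was among the 2 highest arrays in 9 of the 10 genes, and MYTHO D had the lowest mean of the MYTHO arrays. Leaving out a high scrmb array or a low MYTHO array raises the difference by construction. The genes also moved together, so these counts are no separate result. The lowest limma adjusted p of a member under any alternative was 0.363, for *Egr1* in the fit without MYTHO D.

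Markers of other cell types were compared over the same arrays. The mean of the 6 endothelial markers ran from 9.37 to 9.85 in scrmb and from 9.94 to 10.33 in MYTHO without overlap. Among single probe sets, 2.59% had all MYTHO arrays above all scrmb arrays. All 5 smooth muscle and pericyte markers had a positive log2 fold change, and all 5 Schwann cell markers a negative one. The 6 endothelial genes were all positive too, where 49.3% of all probe sets lay above 0, and signs within a list are not independent. Of these, *Tek* at 0.86 and *Pecam1* at 0.45 had an unadjusted p of 0.00606 and 0.0369 (limma adjusted p = 0.213 and 0.366), 2 of 6 beside 4.81% of all probe sets. In the scrmb leg of A, the array with the lowest immediate early signals, the endothelial mean was 9.85, the highest of the scrmb arrays. The 6 red blood cell markers were read from 5 probe sets, since *Hba-a1* and *Hba-a2* share 1, and their mean ran from 10.95 to 12.57 in scrmb and from 11.66 to 13.45 in MYTHO. It was highest within each group in scrmb A and MYTHO D, which also had the lowest mean of the 10 genes within their groups. The other arrays did not keep this order. MYTHO B, with the highest mean of the 10 genes, was at 12.13, above MYTHO A and C at 11.66 and 11.72. In scrmb, the red blood cell mean was lowest in C, while the mean of the 10 genes was highest in B. Adipocyte markers ranged most, from 4.91 to 8.81 in scrmb and from 5.39 to 10.50 in MYTHO, and peaked in the MYTHO leg of A. Means of the macrophage list lay between 7.09 and 7.42 on all arrays, those of the neutrophil list between 4.81 and 5.25, and those of the satellite cell list between 5.23 and 5.54. Smooth muscle and pericyte markers averaged 9.88 to 10.37 in scrmb and 10.18 to 10.67 in MYTHO, fibroblast markers 10.92 to 11.02 and 10.61 to 11.33, T cell markers 6.04 to 6.43 and 5.86 to 6.26, and Schwann cell markers 7.13 to 9.09 and 7.19 to 7.77. In these 4 lists, 1 pericyte gene, *Rgs5*, was higher and 1 fibroblast gene, *Dcn*, lower at an unadjusted p under 0.05, beside 4.81% and 7.58% of all probe sets, and in the red blood cell, adipocyte, macrophage, neutrophil and satellite cell lists 0 genes passed by limma. The part of these cell types in the levels of the 10 genes was not tested.

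The other genes of the response were read from 4 lists of 87 genes in all. None had a limma adjusted p under 0.05. At an unadjusted p under 0.05, 5 of the 87 were higher and 0 lower, which is 5.75% higher beside 4.81% of all probe sets. With animal as a fixed block, 8 were higher and 0 lower, beside 4.94% and 7.66% of all probe sets. With animal as a random block, 5 were higher and 0 lower, beside 5.30% and 8.09%. Without the MYTHO array of B, 1 was higher, beside 3.45%. The median log2 fold change of the 87 was 0.15.

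Among 18 other inducible transcription factors, 0 passed an unadjusted p under 0.05 by limma, and 15 had a positive log2 fold change, where 49.3% of all probe sets did. The median of the 18 was 0.13, beside -0.005 over all probe sets, and these signs are not independent either. *Nr4a1*, an orphan nuclear receptor induced by contraction, averaged 11.28 ± 0.41 (SD, n = 4) across scrmb legs and 11.78 ± 0.70 (SD, n = 4) across MYTHO legs, a log2 fold change of 0.50 (limma adjusted p = 0.579). It was 0.19 without MYTHO B and 0.73 without MYTHO D (limma unadjusted p = 0.504 and 0.0442). *Srf*, the serum response factor that acts upstream of many early genes, differed by 0.12 (limma adjusted p = 0.858). With single arrays left out, *Srf* lay between 0.024 (without scrmb C) and 0.23 (without scrmb D). In this list, 9 of the 18 genes were highest in the MYTHO leg of B and 4 lowest in the scrmb leg of A.

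Of 31 further early response genes that code for feedback regulators, kinases and secreted proteins, 3 had an unadjusted p under 0.05, all higher in MYTHO muscle, beside 4.81% of all probe sets higher and 7.58% lower. *Rhob*, a small GTPase, was 6.06, 6.79, 6.28 and 6.07 in scrmb and 6.66, 7.90, 6.82 and 6.85 in MYTHO, a log2 fold change of 0.76 (unadjusted p = 0.0195, limma adjusted p = 0.304). *Phlda1* differed by 0.78 (limma adjusted p = 0.356) and *Dusp6*, a phosphatase that switches off ERK kinases, by 0.53 (limma adjusted p = 0.388). These 3 genes were higher in the MYTHO leg of 4 of 4 animals, and their groups overlapped. They were picked by their p on the same arrays, so this agreement is not separate support. Without the MYTHO array of B none of the 3 passed, at log2 fold changes of 0.48 for *Rhob*, 0.51 for *Phlda1* and 0.33 for *Dusp6* (limma unadjusted p = 0.0548, 0.11 and 0.142). Without the scrmb array of A they did not pass either, at 0.68, 0.58 and 0.46 (limma unadjusted p = 0.0512, 0.103 and 0.0981). With other single arrays left out, *Rhob* lay between 0.68 and 0.92, *Phlda1* between 0.70 and 0.96 and *Dusp6* between 0.44 and 0.65. Some of these values had an unadjusted p above 0.05 at a difference of similar size, with 1 array fewer: *Rhob* without scrmb D, *Phlda1* without MYTHO D or scrmb B, and *Dusp6* without MYTHO C, MYTHO D or scrmb D. *Dusp6* did so too with both arrays of animal A left out, at 0.59, and with array weights, at 0.45. *Dusp1*, a MAP kinase phosphatase, was also lowest in the scrmb leg of A and highest in the MYTHO leg of B, at 15.63, 16.68, 16.29 and 15.82 in scrmb and 16.42, 17.44, 16.43 and 15.85 in MYTHO. Its log2 fold change was 0.43 (limma adjusted p = 0.647), with 0.13 without MYTHO B and 0.66 without MYTHO D. *Homer1*, a scaffold protein, differed by -0.36 (limma unadjusted p = 0.0614, adjusted p = 0.431). In the list of 31, 16 genes were highest in the MYTHO leg of B and 11 lowest in the scrmb leg of A.

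Upstream of the members, 2 of 23 kinases and factors had an unadjusted p under 0.05, both higher, beside 4.81% of all probe sets higher and 7.58% lower. *Mapk8*, which codes for the JUN kinase JNK1, was 6.58, 6.68, 6.43 and 7.52 in scrmb and 7.52, 8.22, 7.13 and 7.76 in MYTHO, a log2 fold change of 0.86 (unadjusted p = 0.0106, limma adjusted p = 0.253). *Crtc2*, a coactivator of CREB, differed by 0.67 (unadjusted p = 0.0154, limma adjusted p = 0.283), with scrmb arrays from 10.52 to 11.43 and MYTHO arrays from 11.54 to 12.10, without overlap, as in 2.59% of all probe sets. Both were higher in the MYTHO leg of 4 of 4 animals, which is not separate support, since both were picked by their p on these arrays. *Mapk8* kept an unadjusted p under 0.05 whichever array was left out, while *Crtc2* was at 0.54 without MYTHO B and 0.49 without scrmb C (limma unadjusted p = 0.0502 and 0.052). *Mapk14*, the stress kinase p38 alpha, differed by -0.33 (limma adjusted p = 0.469), lower in the MYTHO leg of 4 of 4 animals and without overlap of the groups, as in 3.87% of all probe sets. *Mkl2*, a coactivator of SRF, differed by 0.06. The 16 partners and antagonists of the members, such as the partners of MYC, had 0 genes past an unadjusted p under 0.05 by limma and a median log2 fold change of 0.04. In this list *Cnot7* and *Cnot8*, which code for deadenylases that bind BTG proteins, differed by -0.13 and 0.01.

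**Figure D4:**
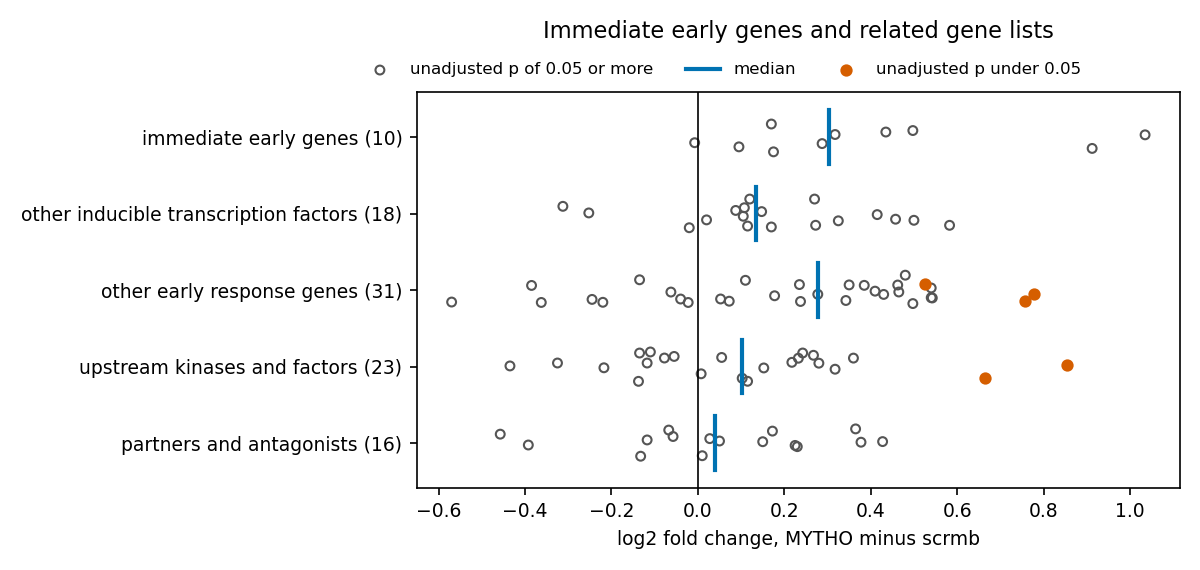
Log2 fold change, MYTHO minus scrmb, of the 10 immediate early genes and of the genes of 4 related lists, with 1 circle per gene, blue bars at the medians and filled circles for an unadjusted limma p under 0.05. The filled circles are *Mapk8*, *Crtc2*, *Phlda1*, *Rhob* and *Dusp6*, and the median is 0.30 for the 10 genes and 0.28 for the further early response genes.

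The genes whose pattern over the 8 arrays was most like the mean of the 10 members, each scaled to its own mean and SD, were *Vta1*, *Aldh1a7*, *Agmo*, *Gtf2a2* and *Gatad1*. Their Pearson r ran from 0.919 to 0.952 over 8 arrays from 4 animals. They are the highest of 10536 probe sets searched, so the values are a description and carry no test. *Vta1* was 7.11, 8.20, 7.71 and 7.46 in scrmb and 8.16, 8.08, 7.43 and 7.52 in MYTHO, lowest in the scrmb leg of A as were 8 of the members.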

How the data were processed

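Trizol RNA from each muscle was read, after biotin labelling, on 1 Clariom S Mouse array. The authors deposited log2 signals from the Transcriptome Analysis Console version 4.0.1 with default parameters, per the file headers by SST-RMA at gene level, with annotation release 36 on mm10. RMA brings all arrays to one distribution, so a shift of most genes would not be seen. The deposited log2 signals have 2 decimals and a ceiling of 19.93, which no member reached. The table also holds the authors' group averages, fold changes and p-values, which were not used.

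MYTHO was compared with scrmb by limma version 3.58.1 in R version 4.3.3 (lmFit, eBayes, two-sided, Benjamini-Hochberg over 22206 probe sets), without a block, since the array methods name none. That fit and the permutation test treat both legs of a mouse as independent samples. The limma fit was tested on simulated data with independent noise in each probe set. That simulation held no effect shared by the genes of an array or an animal, so it cannot speak to such effects here. A gene with several probe sets was taken from the one with the highest mean. The series design puts both viruses in opposite legs of one mouse, and arrays that share a column number were taken as one mouse. Their deviations from group means correlated, across probe sets, at 0.0027, -0.0014, 0.1345 and 0.0871 in animals A to D, beside -0.1669 to 0.1036 between different animals, and animal was used as a block in an alternative. The labels' replicate numbers could not be tied to columns.

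All members are named, with up to 4 genes of each of the 4 pathway lists by size of change among those with an unadjusted p under 0.05 and the 2 with the highest signal (a rule for naming, since signals of different probe sets do not give relative abundance), and the 5 genes most like the members in pattern. Marker genes outside this rule were named after their values were seen. The members and lists were chosen with earlier results of these data known. Alternatives were quantile normalization, median centring, only the upper 75% or 50% of probe sets by signal, array weights, a robust eBayes with a trend, removal of saturated probe sets, animal as a fixed or random block, leaving out each array, and leaving out animal A. Where a sequence was not in the table used, none is shown.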

Additional observations from a re-analysis of the deposited data

Results flagged for a closer look

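In 52 groups of 4 arrays, covering the 10 genes, their mean and the means of 15 lists, 3 had a single array set apart by Dixon's test, which compares its gap to the next array with the whole range. Chance alone gives about 1 in 20. *Egr1* in the MYTHO leg of animal D was 11.26, against 13.34 to 13.46 in the other MYTHO legs (gap share 0.946). *Myc* in the MYTHO leg of B was 9.13, against 7.63 to 7.74 (gap share 0.927). The mean of the 31 further early response genes was 9.07 in that same leg, against 8.41 to 8.49 (gap share 0.8825).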

How the results depend on the processing

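The number of members with a limma adjusted p under 0.05 stayed at 0 under all 18 other fits, 8 of them without 1 array. In 12 alternatives that can move a fold change (each array left out, animal A left out, array weights, quantile normalization and median centring), 15 of 120 member values, in 4 genes, reversed, none of them called. The other alternatives change only the test or the number of probe sets. At an unadjusted p under 0.05, 0 to 3 members were higher without single arrays (3 without scrmb B, 2 without MYTHO D, 0 otherwise), and 0 to 2 were also at least 2-fold higher (2 without scrmb B, beside 0.266% of all probe sets, and 2 without MYTHO D, beside 0.468%). Leaving out either of these arrays raised the difference of most members, and the members are not independent. Leaving out single arrays moved *Fosb* between -0.32 and 0.61 (log2), *Jun* between -0.21 and 0.18, *Myc* between -0.073 and 0.43, *Btg2* between -0.18 and 0.52, *Cnot8* between -0.058 and 0.076 and *Mkl2* between -0.029 and 0.15. Array weights gave -0.019 for *Btg2*, median centring gave 0.033 for *Jun*, and leaving out animal A gave -0.80 for *Fosb*, -0.21 for *Btg2* and -0.06 for *Mkl2*. Of the 87 list genes, 5 higher and 0 lower became 8 higher with the fixed replicate block by animal (5 with the random one), and 2 lower with array weights or the upper 50%, 3 with trend and robust, and 1 without animal A. Without single arrays, 1 to 7 were higher (1 without MYTHO B, 2 without scrmb A) and 0 to 3 lower (3 without MYTHO A, 2 without MYTHO C or scrmb D). The block by animal changed no adjusted call among the members or list genes. *Homer1* passed an unadjusted p under 0.05 in 4 alternatives (array weights, trend and robust, upper 50%, without scrmb D) and *Mapk14* in 1 (trend and robust). *Ier3* was not in the upper 50%. The cause of these moves was not tested, apart from the arrays left out. No member had another row to try. The labels' replicate numbers could not be used as a block.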
